A study of Mus musculus with 10 samples.

Results

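The genes described here encode the machinery with which a cell folds, checks and exports proteins in the endoplasmic reticulum (ER), together with factors of the unfolded protein response. There were 45 listed genes, chosen by name from a list of known components and matched to the probes of the array by symbol or older symbol. Of these, 44 had a probe, with 73 probes of 45281 on the array, and 39 could be tested among 11185 genes. By role, 16 of 17 folding factors were tested, 6 of 8 degradation factors, 11 of 12 components of protein import and signal processing, 2 of 4 vesicle transport factors, and 4 of 4 sensors and transcription factors. The genes not tested were Canx, Derl1 and Derl3, whose probes were detected on 0 arrays, Rpn1 and Kdelr1, detected on 1 array each, and Sec23b, for which no probe was matched.

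Proteins bound for secretion enter the ER through the Sec61 channel, lose their signal peptide, receive sugar chains, and fold with the help of chaperones and disulfide isomerases. Chains that fail to fold are drawn back into the cytosol and degraded, and folded ones leave in coated vesicles. When unfolded chains accumulate, the sensors IRE1 (Ern1), PERK (Eif2ak3) and ATF6 raise the supply of chaperones and slow translation. The pathway is known to expand strongly when B cells become antibody-secreting cells.

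The arrays measured RNA of splenic B cells from C57BL/6 mice on Illumina MouseWG-6 beadchips. The IL-10+ group (5 arrays) held cells that secreted interleukin 10, an anti-inflammatory cytokine, the IL-10- group (3 arrays) held cells sorted as not secreting it, and the third group was total B cells (2 arrays). The labels give a stimulation of 5 h with LPS (10 µg/ml), a bacterial Toll-like receptor ligand, PMA (50 ng/ml), an activator of protein kinase C, and the calcium ionophore ionomycin (500 ng/ml), in a protocol text shared by all 3 groups. Secreting cells were captured with the Regulatory B Cell Isolation Kit (Miltenyi Biotec), and purity was raised by flow sorting. The labels do not say whether the replicates are separate mice, and p-values therefore cover only the spread among these samples, part or all of which may be technical.

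Levels are background-corrected, quantile-normalized log2 intensities. A difference is the fitted log2 difference ± its standard error (SE) in limma, and a gene is said to rise or fall where its Benjamini-Hochberg adjusted p over all 11185 genes was under 0.05. The brightest probe stood for each gene. In bulk samples, fewer cells of a type and less RNA per cell cannot be told apart. Precision is limited by the number of arrays.

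Il10 checked the labels. It measured 12.90, 13.65, 13.20, 13.04 and 13.12 on the IL-10+ arrays, 7.92, 7.77 and 7.55 on the IL-10- arrays, and 10.63 and 9.89 on the total B arrays, so the sorted fractions differed by 5.44 ± 0.21. Of 8 B cell markers 7 were measured, all but Cd79a, and their summed linear level was 41446 to 49608 on IL-10+ arrays, 53148 to 57646 on IL-10- arrays and 42988 to 45988 on total B arrays. Between 14410 and 15610 probes were detected on IL-10+ arrays, 13910 to 14313 on IL-10- arrays and 14389 to 14987 on total B arrays. Slide 1 held 3 IL-10+ and 2 IL-10- arrays, and slide 2 held the other 2 IL-10+ arrays, the remaining IL-10- array and both total B arrays. The slide was read from the number in each array's column name, which was taken to mark the beadchip.

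Between IL-10+ and IL-10- cells, 9 of the 39 tested genes rose and 0 fell, also 0 at an unadjusted p under 0.05. The risen genes were the folding factors Mzb1, Fkbp11, Pdia4, Sdf2l1 and Pdia3, the degradation factors Edem1, Sel1l and Edem2, and the transcription factor Creb3l2. Creb3l2 met the detection filter only through its IL-10+ arrays, the group in which it was higher. The same holds for Sec24d, which did not pass the test. Among the 37 listed genes detected on at least 5 arrays, 8 rose, as did 978 of all 10103 such genes. Over all genes tested, 9.12% rose and 9.01% fell. The 39 differences ran from -0.35 to 1.95 with a median of 0.25, against a median of -0.03 over all genes, and 27 of the 39 were positive. Among genes detected on at least 5 arrays the listed genes' median was 0.16, against -0.04 over all such genes. It was also 0.16 without the detection filter, without background correction, and with the mean of each gene's probes. The median of all genes was -0.02 in each of these settings. With arrays scaled to a common median in place of quantile normalization, the median of all genes moved to 0.48, the listed genes' median was 0.80 and 18 rose. Under that scaling 96.9% of the calls over all genes were rises, against 50.3% here, so each difference is best read against the median of all genes.

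**Figure D1:**
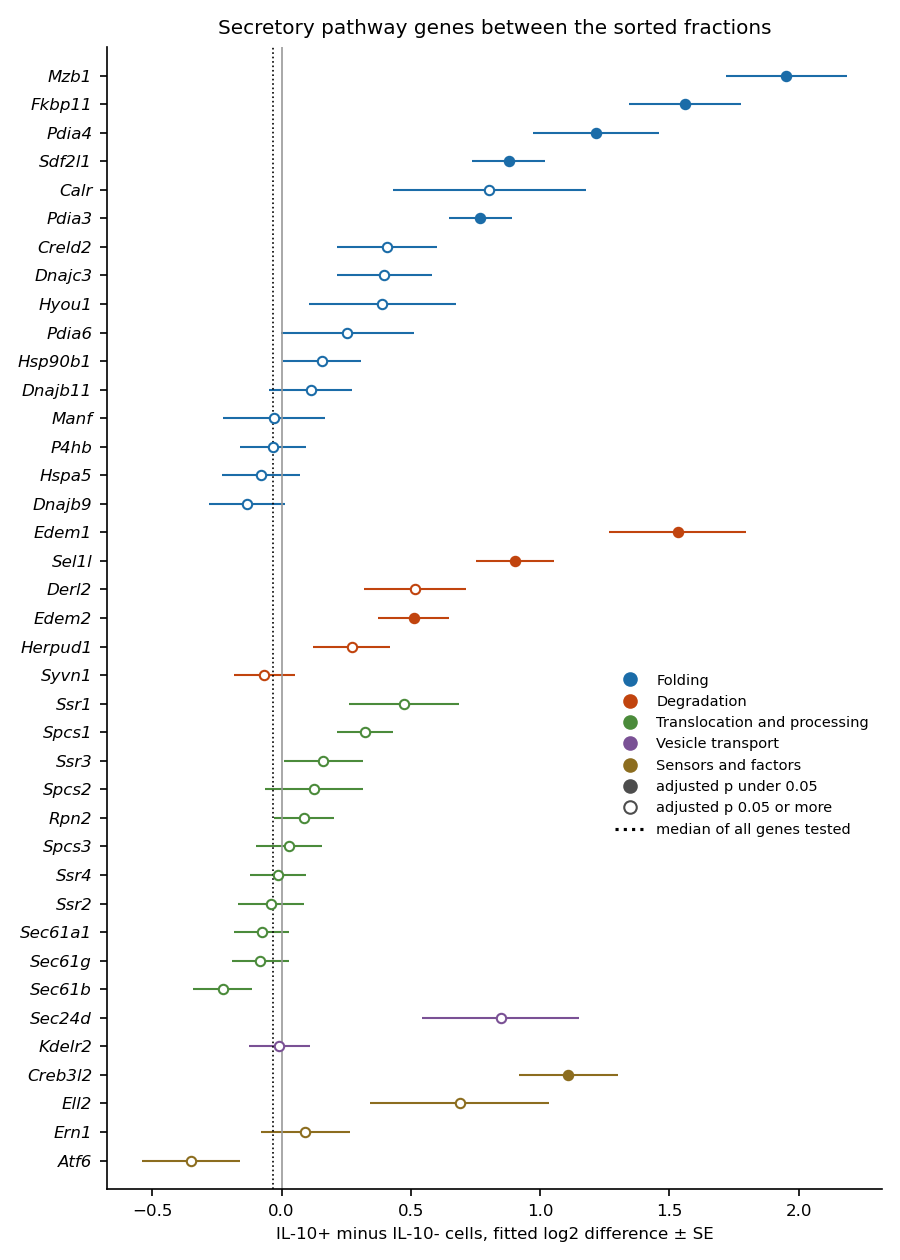
Fitted log2 difference (x axis, IL-10+ minus IL-10- cells) of the 39 tested genes, grouped by role and sorted within each role, with bars of ± 1 SE. Filled points passed an adjusted p of 0.05, and all 9 of them lie right of 0; the dotted line is the median of all genes tested, -0.03.

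Mzb1, an ER protein of B cells that assists immunoglobulin assembly, measured 12.50, 12.43, 12.10, 11.97 and 12.34 on the 5 IL-10+ arrays, 10.83, 10.26 and 9.86 on the 3 IL-10- arrays, and 10.07 and 9.38 on the total B arrays. Every IL-10+ array lay above every other array. The difference from IL-10- cells was 1.95 ± 0.23, a 3.87-fold higher level (limma adjusted p = 0.000556). Fkbp11, a prolyl isomerase of the ER, measured 8.56, 7.59, 7.53, 7.92 and 7.86 in IL-10+ cells, 6.13, 6.53 and 6.32 in IL-10- cells, and 6.09 and 6.01 in total B cells. Its groups did not overlap either, with IL-10+ cells above both others, and it rose 2.95-fold against IL-10- cells (1.56 ± 0.22, limma adjusted p = 0.00118).

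Of 4 tested disulfide isomerases 2 rose. Pdia4 measured 9.59, 9.52, 8.96, 9.16 and 9.26 in IL-10+ cells, 8.48, 8.33 and 7.42 in IL-10- cells, and 8.54 and 8.93 in total B cells. It was 2.33-fold higher in IL-10+ than in IL-10- cells (1.22 ± 0.24, limma adjusted p = 0.00739), and the lowest IL-10- array, replicate 5, stood apart from the other two. Pdia3, which serves glycoproteins held by calreticulin and calnexin, measured 11.87, 11.79, 11.78, 11.96 and 11.80 in IL-10+ cells, 11.05, 11.14 and 11.03 in IL-10- cells, and 11.07 and 11.50 in total B cells. It rose 1.70-fold against IL-10- cells (0.77 ± 0.12, limma adjusted p = 0.00242). P4hb and Pdia6, of the same enzyme family, had differences of -0.03 ± 0.13 (adjusted p = 0.885) and 0.25 ± 0.26 (adjusted p = 0.530), and a second probe of Pdia6 gave -0.23.

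Sdf2l1, a partner of ER DnaJ proteins, measured 7.90, 7.84, 7.47, 8.05 and 7.83 in IL-10+ cells, 6.97, 6.92 and 6.93 in IL-10- cells, and 6.93 and 7.18 in total B cells. All 5 IL-10+ arrays lay above the other 5, and the gene was 1.84-fold higher in IL-10+ than in IL-10- cells (0.88 ± 0.14, limma adjusted p = 0.00243).

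The central chaperone of the ER, BiP (Hspa5), was not among the risen genes. It measured 11.86, 11.40, 11.96, 11.98 and 11.63 in IL-10+ cells, 11.75, 11.93 and 11.85 in IL-10- cells, and 11.08 and 11.24 in total B cells. The IL-10+ and IL-10- arrays overlapped, with a difference of -0.08 ± 0.15 (limma adjusted p = 0.756). Hsp90b1, the ER form of HSP90, differed by 0.16 ± 0.15 (adjusted p = 0.507). The differences of the BiP co-chaperones were -0.13 ± 0.15 for Dnajb9, 0.11 ± 0.16 for Dnajb11 and 0.40 ± 0.18 for Dnajc3, and none passed the test. The nucleotide exchange factor Hyou1, detected on 1 of 3 IL-10- arrays, differed by 0.39 ± 0.28. Calr, the lectin chaperone calreticulin, had a difference of 0.80 ± 0.37 that also missed the threshold (adjusted p = 0.160), but it passed when replicate numbers were blocked (1.03, adjusted p = 0.0356). Its IL-10- array of replicate 5 was at 7.38, below the other IL-10- arrays at 8.82 and 9.04, and its IL-10+ arrays ran from 8.54 to 9.70. Creld2 and Manf, small ER proteins known as stress response targets, differed by 0.41 ± 0.19 and -0.03 ± 0.20.

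Among the degradation factors 3 of 6 rose and 0 fell, with a median difference of 0.51. Edem1, a lectin-like factor that sends misfolded glycoproteins to degradation, measured 7.43, 6.51, 6.60, 6.91 and 6.19 in IL-10+ cells, 5.66, 4.92 and 5.01 in IL-10- cells, and 5.96 and 5.92 in total B cells. It was not well above background on any IL-10- array, so its level was at least 2.0-fold higher in IL-10+ cells. The measured means differed by 1.53 ± 0.26 (limma adjusted p = 0.00356). Such a bound sets the mean of the bright group against the lowest detected signal of each array of the dim group, or the probe's own value where that is higher.

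Sel1l, the scaffold of the HRD1 ubiquitin ligase in the ER membrane, measured 10.18, 10.18, 10.38, 10.34 and 10.18 in IL-10+ cells, 8.96, 9.60 and 9.49 in IL-10- cells, and 9.08 and 8.98 in total B cells. The IL-10+ arrays lay within a narrow range above all others, a 1.87-fold rise against IL-10- cells (0.90 ± 0.15, limma adjusted p = 0.00308). The ligase itself, Syvn1, had a difference of -0.07 ± 0.12 (adjusted p = 0.733). Edem2, which trims a mannose from misfolded glycoproteins, measured 10.77, 10.55, 10.24, 10.50 and 10.59 in IL-10+ cells, 9.85, 10.15 and 10.05 in IL-10- cells, and 10.27 and 10.34 in total B cells. It rose 1.43-fold against IL-10- cells (0.51 ± 0.14, limma adjusted p = 0.0272). When replicate numbers were blocked, its difference was 0.44 and its adjusted p 0.114, and without IL-10- replicate 2 the values were 0.43 and 0.103. The call was also lost when IL-10+ replicate 1, 4 or 5 was omitted, with adjusted p of 0.0520 to 0.0574. Derl2, a membrane channel component of retrotranslocation, differed by 0.52 ± 0.20 (adjusted p = 0.0944), and its second probe gave -0.40. Herpud1 differed by 0.27 ± 0.15.

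**Figure D2:**
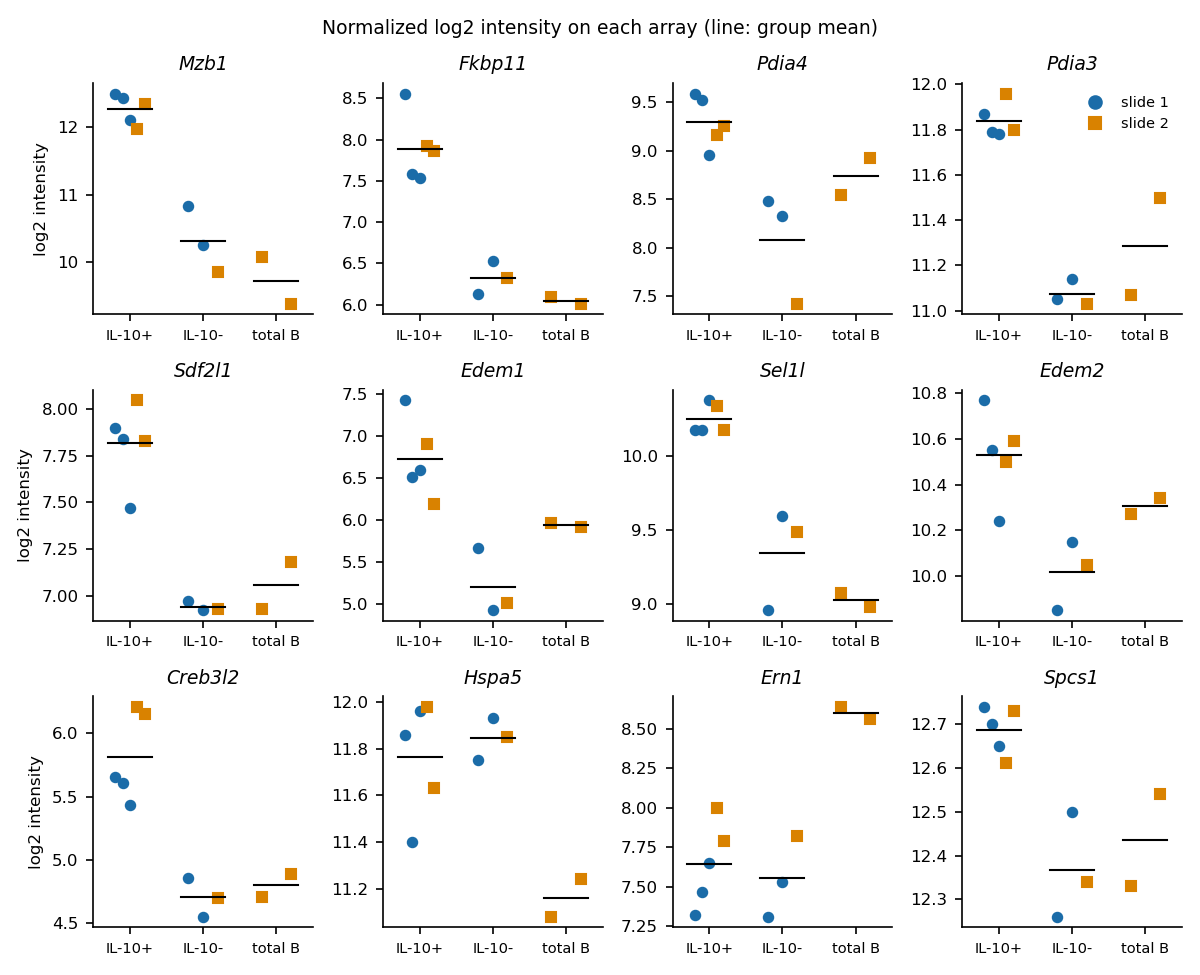
Normalized log2 intensity (y axis, a separate scale in each panel) of 12 genes on each array, by group, with IL-10+ left of IL-10- and total B cells; circles are arrays of slide 1, squares of slide 2, and lines are group means. The 9 genes that rose have every IL-10+ array above every IL-10- array, as does Spcs1, while Hspa5 and Ern1 set the sorted fractions apart from total B cells.

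By the brightest probes, the import and processing machinery stayed close to the median of all genes, and 0 of 11 components rose or fell. At an unadjusted p under 0.05, 2 were higher and 0 lower. The median difference was 0.03 and the range -0.23 to 0.47. A dimmer probe of Spcs3, described below, gave 0.84. The channel subunits Sec61a1, Sec61b and Sec61g differed by -0.08 ± 0.11, -0.23 ± 0.11 and -0.08 ± 0.11. A dimmer probe of Sec61a1 gave -0.56 ± 0.22 (limma adjusted p = 0.111 over all probes). For Sec61b all IL-10+ arrays (9.50 to 9.75) lay below all IL-10- arrays (9.79 to 9.99), as for 12.9% of all genes. The Sec61b difference did not pass the test (limma adjusted p = 0.189). The translocon-associated subunits Ssr1, Ssr2, Ssr3 and Ssr4 differed by 0.47 ± 0.21, -0.04 ± 0.13, 0.16 ± 0.15 and -0.01 ± 0.11. Rpn2, a subunit of the oligosaccharyltransferase, differed by 0.09 ± 0.11.

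The smallest p among these components belonged to Spcs1, an accessory subunit of signal peptidase. It measured 12.74, 12.70, 12.65, 12.61 and 12.73 in IL-10+ cells, 12.26, 12.50 and 12.34 in IL-10- cells, and 12.33 and 12.54 in total B cells. The sorted fractions did not overlap, but the difference of 0.32 ± 0.11 missed the threshold (limma adjusted p = 0.0662), and a second probe gave -0.13. Over all genes, 11.6% had IL-10+ arrays wholly above IL-10- arrays, and 10 of the 39 listed genes did, the 9 risen ones and Spcs1.

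Of the vesicle transport factors, Sec24d, a cargo adaptor of the COPII coat, measured 6.17, 4.73, 5.47, 6.02 and 5.79 in IL-10+ cells, 4.43, 4.68 and 5.25 in IL-10- cells, and 4.89 and 5.08 in total B cells. It was well above background on 3 of 5 IL-10+ arrays and on 0 arrays of the other groups, and the groups overlapped (0.85 ± 0.31, limma adjusted p = 0.0806). Kdelr2, which returns escaped ER proteins from the Golgi, differed by -0.01 ± 0.12.

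Creb3l2, a membrane-bound transcription factor related to ATF6, was measured close to background. It measured 5.65, 5.61, 5.43, 6.21 and 6.15 in IL-10+ cells, of which 4 of 5 arrays were well above background. It measured 4.86, 4.55 and 4.70 in IL-10- cells and 4.71 and 4.89 in total B cells, with 0 arrays above background. The bound was at least 1.06-fold higher in IL-10+ than in IL-10- cells, beside measured means that differed by 1.11 ± 0.19 (limma adjusted p = 0.00359). Ell2, a transcription elongation factor that directs secretory immunoglobulin mRNA in plasma cells, measured 7.42, 7.42, 7.22, 8.16 and 8.55 in IL-10+ cells, against 6.57, 6.82 and 7.81 in IL-10- cells. In both sorted fractions the slide 2 arrays were the highest, while the total B arrays, also on slide 2, measured 6.52 and 6.72. The difference between the sorted fractions, 0.69 ± 0.35, did not pass (limma adjusted p = 0.193), though with the block it did (0.67, adjusted p = 0.0316). Against total B cells the IL-10+ difference was 1.13 ± 0.40 (limma adjusted p = 0.0634). The sensors Ern1 and Atf6 differed by 0.09 ± 0.17 and -0.35 ± 0.19, and neither passed.

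The 9 rises had the same direction on each slide. Within slide 1 (3 IL-10+ and 2 IL-10- arrays) the differences ran from 0.52 for Edem2 to 1.80 for Mzb1, and 4 passed the test, those of Mzb1, Fkbp11, Pdia3 and Creb3l2. Within slide 2 (2 IL-10+ arrays and a single IL-10- array, assumed to vary like the other groups) they ran from 0.49 for Edem2 to 2.30 for Mzb1, and 5 passed, those of Mzb1, Fkbp11, Pdia4, Edem1 and Creb3l2. With slide as a block in the fit of all arrays, 12 listed genes rose, all 9 among them.

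Several genes had more than 1 probe, which tests the choice of the brightest. All 4 detected probes of Sel1l gave a positive difference, at 0.90, 0.70, 0.64 and 0.59, and 2 of them passed over all 16496 detected probes. The 4 probes of Edem2 gave 0.80, 0.68, 0.51 and 0.25, and the brightest alone passed. With the replicate block, the limma adjusted p over all probes was 0.143 for the Sel1l probe at 0.64. It was 0.125 for the brightest Edem2 probe. Spcs3, another subunit of signal peptidase, had probes that disagreed. Its brightest probe measured 10.40, 10.41, 10.19, 10.60 and 10.46 in IL-10+ cells, 10.36, 10.28 and 10.51 in IL-10- cells, and 10.31 and 10.57 in total B cells (0.03 ± 0.13, limma adjusted p = 0.908 over all probes). Its other probe measured 9.43, 9.08, 9.08, 9.52 and 9.22 in IL-10+ cells, 8.24, 8.43 and 8.61 in IL-10- cells, and 8.87 and 8.90 in total B cells. That probe put IL-10+ cells above both other groups with no overlap, and above IL-10- cells by 0.84 ± 0.15 (limma adjusted p = 0.00432 over all probes). Which transcripts each probe reads was not analysed here.

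**Figure D3:**
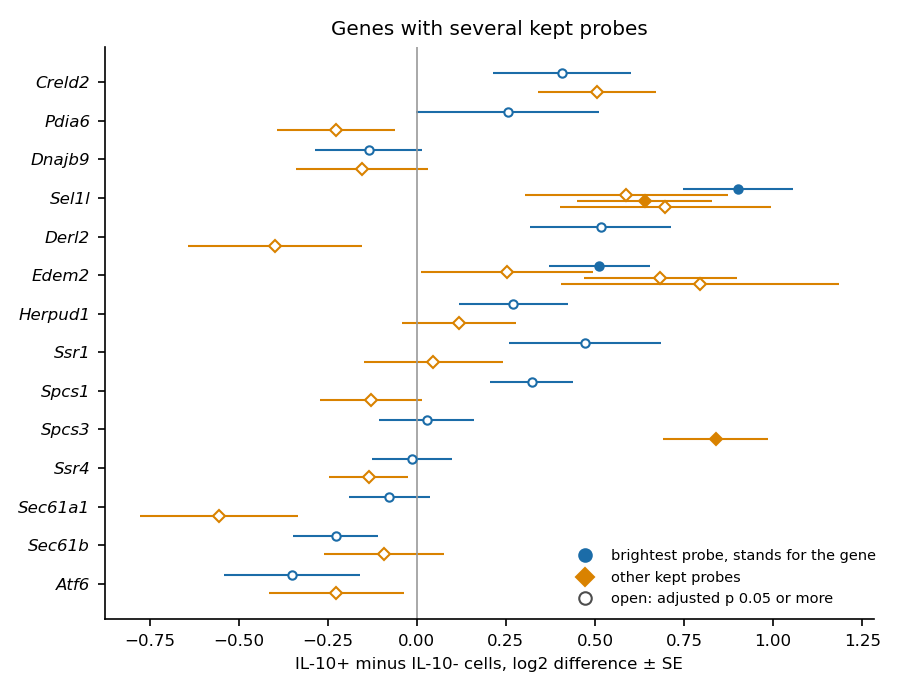
Log2 difference ± SE (x axis, IL-10+ minus IL-10- cells) of every kept probe of the 14 tested genes with more than 1 such probe; circles are the brightest probe and diamonds the others, filled where the adjusted p over all kept probes was under 0.05. Probes of Sel1l and Edem2 lie on the same side of 0, and those of Derl2, Pdia6 and Spcs1 on opposite sides.

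The promoters are shown because many of these genes are known to share a short sequence to which ATF6 and XBP1 bind. The ER stress response element (ERSE) was searched as CCAAT, any 9 bases, CCACG, and ERSE-II as ATTGG, any 1 base, CCACG, on both strands of the 300-base window from 250 bases before the annotated start (RefSeq, GRCm38.p6). Windows were given for 36 of the 45 genes. An ERSE was present in 9 of the 36 (25%), against 37 of 27025 genes (0.137%), and an ERSE-II in 2 (5.56%), against 12 of all genes (0.0444%). The UPRE core TGACGTGG was found for Sec24d alone (2.78%, against 0.714% of all genes) and the CRE TGACGTCA for Ell2 alone (2.78%, against 2.03%). A match is a description of these letters, not a binding site. The elements of the tested genes are printed in the direction in which the motif reads, 5′ to 3′, with the fixed letters in capitals. The ERSEs were:
Hspa5 (chr2:34772025-34772043, plus strand): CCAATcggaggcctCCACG
Hsp90b1 (chr10:86705638-86705656, minus strand): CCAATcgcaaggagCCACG
Hsp90b1 (chr10:86705533-86705551, plus strand): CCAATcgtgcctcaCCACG
Pdia6 (chr12:17266491-17266509, plus strand): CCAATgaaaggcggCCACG
Dnajc3 (chr14:118937827-118937845, plus strand): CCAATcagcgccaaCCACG
Creld2 (chr15:88819520-88819538, minus strand): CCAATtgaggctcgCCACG
Syvn1 (chr19:6046532-6046550, plus strand): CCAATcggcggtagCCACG
Calr (chr8:84847075-84847093, plus strand): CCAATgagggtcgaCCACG

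The ERSE-II matches were:
Herpud1 (chr8:94386377-94386387, plus strand): ATTGGgCCACG
Dnajb11 (chr16:22857852-22857862, plus strand): ATTGGcCCACG

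**Figure D4:**
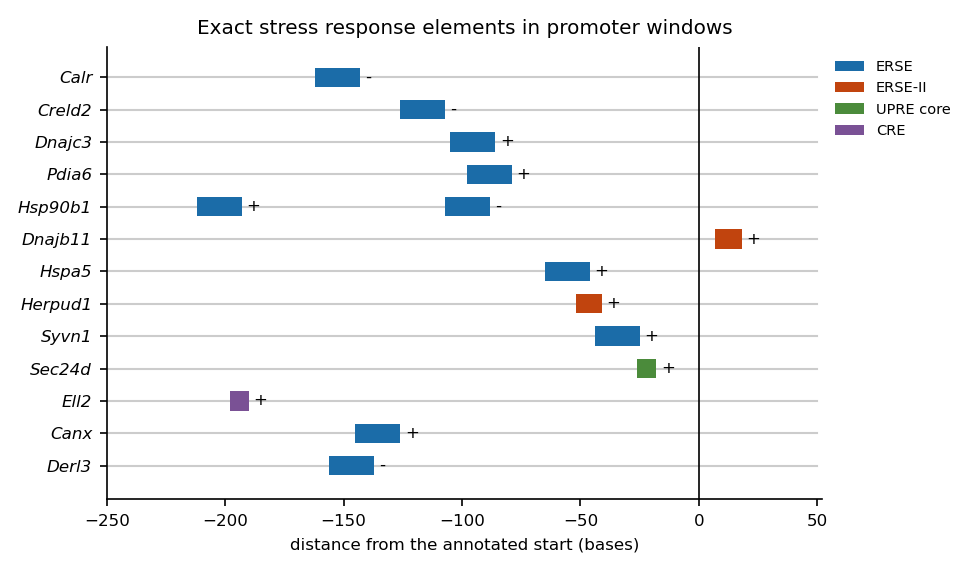
Position of each exact match in the promoter windows (x axis, bases from the annotated start, negative before it) of the 13 listed genes that hold one; colour gives the motif, and + or - the strand relative to the gene. Most matches lie before the start, that of Dnajb11 just after it.

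Of the 9 tested genes with an ERSE or ERSE-II, 0 rose between IL-10+ and IL-10- cells, with differences of -0.08 to 0.80 and a median of 0.25, where 9.12% of all genes rose. Of the 22 tested genes whose window held neither, 8 rose, with a median of 0.49, and the ninth risen gene, Mzb1, had no window in the table. With replicate numbers blocked, 1 of the 9, Calr, and 8 of the 22 rose. Only exact matches were counted, and near ones, such as that in the window of Pdia3 that ends in CCACA, were not. The split by exact matches was made after the values were seen and is a description without a test. The windows of BiP and of Pdia4 are printed in full. That of Hspa5 (chr2:34771840-34772139, plus strand) is shown with its ERSE in capitals. That of Pdia4 (chr6:47813463-47813762, minus strand) holds no exact match to the 4 motifs, and its near ERSE is not marked:
Hspa5: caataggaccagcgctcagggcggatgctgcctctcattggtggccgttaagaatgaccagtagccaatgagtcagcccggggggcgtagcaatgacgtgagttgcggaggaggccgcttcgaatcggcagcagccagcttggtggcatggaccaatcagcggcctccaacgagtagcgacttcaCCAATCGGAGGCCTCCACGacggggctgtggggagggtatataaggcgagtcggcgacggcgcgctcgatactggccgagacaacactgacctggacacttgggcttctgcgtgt
Pdia4: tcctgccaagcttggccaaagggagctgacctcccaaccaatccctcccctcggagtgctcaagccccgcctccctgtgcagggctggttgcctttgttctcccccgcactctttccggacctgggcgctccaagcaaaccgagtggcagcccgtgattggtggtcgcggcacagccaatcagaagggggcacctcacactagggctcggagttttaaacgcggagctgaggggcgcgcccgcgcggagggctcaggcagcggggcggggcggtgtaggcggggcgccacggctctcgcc

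Against total B cells, 9 of 39 genes rose in IL-10+ cells and 1 fell, with a median difference of 0.28 against -0.01 over all genes. Over all genes 12.0% rose and 10.4% fell. Between IL-10- and total B cells 1 rose and 1 fell, with a median of 0.02 against 0.01, where 7.51% of all genes rose and 6.04% fell. Both comparisons share the same 2 total B arrays. The IL-10+ arrays lay wholly above them for 21 of the 39 listed genes and wholly below for 4. Over all 11185 genes this held for 2396 (21.4%) and 2426 (21.7%). The IL-10- arrays lay wholly above them for 10 of the 39 and wholly below for 6, against 21.8% and 20.8% of all genes. Without total B replicate 1, 3 genes rose and 0 fell in IL-10+ against total B cells, and the 3 were Mzb1, Fkbp11 and Sel1l. Within slide 2 alone 7 rose and 1 fell. Under median scaling the median of all genes was 0.23 in IL-10+ and -0.26 in IL-10- against total B cells. Rises then made up 77.9% of the calls over all genes for IL-10+ cells, against 53.6% here, and 16.5% for IL-10- cells, against 55.4% here.

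Those 3 had the largest rises. Mzb1 was 5.81-fold higher in IL-10+ than in total B cells (2.54 ± 0.27, limma adjusted p = 0.000185), Fkbp11 3.59-fold (1.84 ± 0.25, adjusted p = 0.000668) and Sel1l 2.33-fold (1.22 ± 0.17, adjusted p = 0.000922). In IL-10- against total B cells those genes differed by 0.59 ± 0.29, 0.28 ± 0.27 and 0.32 ± 0.19, and none passed. With the mean of all its probes in place of the brightest, Sel1l differed by 0.53 in IL-10+ against total B cells (adjusted p = 0.0959). Sdf2l1 (0.77 ± 0.16), Pdia3 (0.55 ± 0.14) and Creb3l2 (at least 1.17-fold, measured means apart by 1.01 ± 0.22) also rose in IL-10+ cells against total B cells. Without total B replicate 1 their adjusted p were 0.0933, 0.217 and 0.0904, and the difference of Pdia3 was 0.34. The call of Pdia3 was also lost within slide 2 (0.59, adjusted p = 0.0934) and under median scaling (0.84, adjusted p = 0.0938). Pdia4 (0.56 ± 0.28), Edem1 (0.79 ± 0.30) and Edem2 (0.22 ± 0.16), which rose against IL-10- cells, did not pass against total B cells. For Pdia4 and Edem1 both total B arrays lay between the sorted fractions, and for Edem2 they lay above all IL-10- arrays and inside the IL-10+ range.

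Hspa5 was higher in both sorted fractions than in total B cells. Its levels, given above, put all 5 IL-10+ and all 3 IL-10- arrays over both total B arrays, by 0.61 ± 0.17 in IL-10+ cells (1.52-fold, limma adjusted p = 0.0293) and by 0.68 ± 0.19 in IL-10- cells (1.61-fold, adjusted p = 0.0376). Over all genes, 21.4% lay wholly above total B cells in IL-10+ cells and 21.8% in IL-10- cells. Both calls of Hspa5 depended on single arrays and on slide. Within slide 2, which held both total B arrays, the differences were 0.64 and 0.69, with adjusted p of 0.0646 and 0.110. With slide as a block the adjusted p were 0.0482 and 0.0652, and with only the 2 groups fitted that of IL-10- cells was 0.0837. Without total B replicate 1 the differences were 0.52 and 0.60 with adjusted p of 0.195 and 0.203, and the call was lost in 5 of 10 omissions of an array for IL-10+ cells and in 6 of 10 for IL-10- cells. Under median scaling they were 0.89 and 0.42, with adjusted p of 0.0920 and 0.601. Hsp90b1 (0.62 ± 0.17, adjusted p = 0.0272) and Ssr3 (0.73 ± 0.18, adjusted p = 0.0143) rose in IL-10+ against total B cells, and without total B replicate 1 their adjusted p were 0.213 and 0.139. Within slide 2 they were 0.0662 and 0.0664, under median scaling 0.0878 and 0.0501, and Hsp90b1 lost its call in 5 of 10 omissions.

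Ern1, which encodes the sensor that splices Xbp1 mRNA, was the only listed gene that fell in either comparison with total B cells. It measured 7.32, 7.47, 7.65, 8.0 and 7.79 in IL-10+ cells, 7.31, 7.53 and 7.82 in IL-10- cells, and 8.64 and 8.56 in total B cells. The sorted fractions overlapped, and both lay below total B cells without overlap. Over all genes, 21.7% lay wholly below total B cells in IL-10+ cells and 20.8% in IL-10- cells. The difference was -0.95 ± 0.20 in IL-10+ cells (limma adjusted p = 0.00702) and -1.04 ± 0.22 in IL-10- cells (adjusted p = 0.0136). Within slide 2 the IL-10- difference was -0.78 with an adjusted p of 0.0647. Without total B replicate 1 the adjusted p were 0.0670 and 0.0872, and without replicate 2 that of IL-10- cells was 0.0663. Under median scaling the IL-10+ difference was -0.70 with an adjusted p of 0.230. Whether total B cells passed through the same sorting steps is not stated in the labels.

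**Figure D5:**
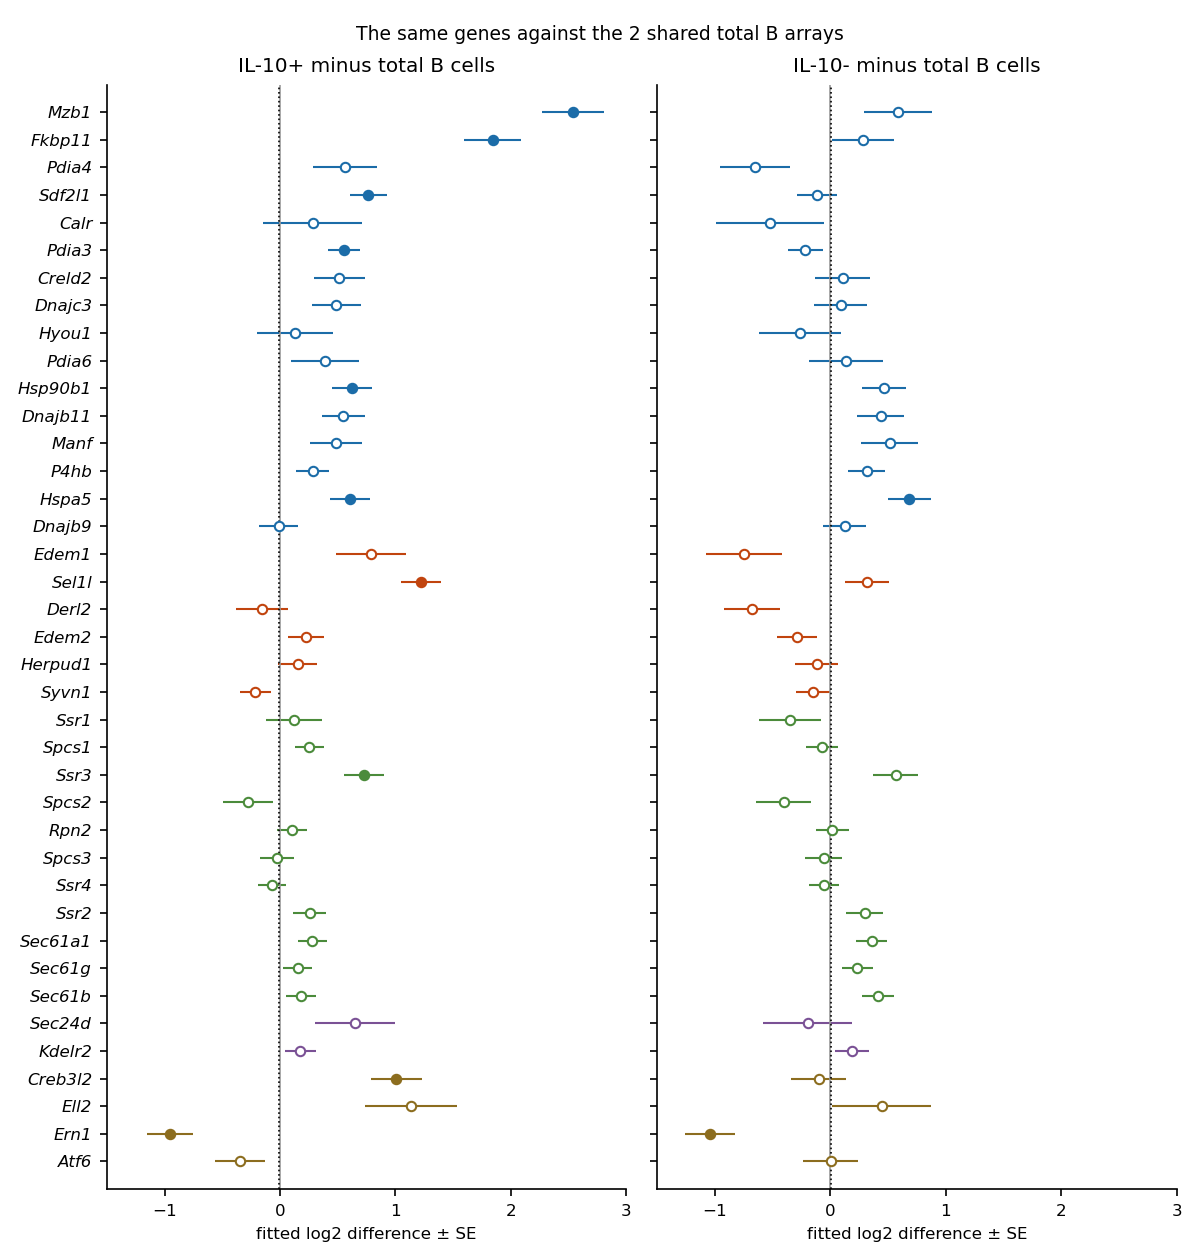
Fitted log2 difference ± SE (x axis) of the 39 tested genes in IL-10+ minus total B cells (left) and IL-10- minus total B cells (right), in the order of the plot between the sorted fractions; filled points passed an adjusted p of 0.05 and dotted lines are the medians of all genes. Both panels use the same 2 total B arrays, and Hspa5 and Ern1 are the genes filled in both.

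The known regulators of the response were measured in the same fit. Xbp1, the transcription factor made active by IRE1, measured 12.04, 11.86, 11.79, 12.23 and 12.16 in IL-10+ cells, 11.02, 11.0 and 11.40 in IL-10- cells, and 11.19 and 11.56 in total B cells. It rose 1.83-fold against IL-10- cells (0.87 ± 0.16, limma adjusted p = 0.00429). Spliced and unspliced Xbp1 were not told apart here. Eif2ak3, encoding the sensor kinase PERK, rose by 0.89 ± 0.20 (adjusted p = 0.0126), with 7.01 to 7.56 in IL-10+ cells against 6.0 to 6.81 in IL-10- cells. Atf4, whose translation PERK promotes, differed by -0.14 ± 0.11 (adjusted p = 0.392). Ddit3, encoding the stress factor CHOP, measured 8.96, 8.69, 8.56, 8.54 and 8.90 in IL-10+ cells, 10.41, 9.93 and 10.16 in IL-10- cells, and 10.58 and 9.66 in total B cells. All IL-10+ arrays lay below all others, a fall of 1.44 ± 0.21 on the log2 scale against IL-10- cells (adjusted p = 0.00153). Median scaling kept the sign, at -0.85.

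Of 141 further genes of the pathway, listed by role, 117 were measured; 10 rose and 8 fell between IL-10+ and IL-10- cells, with a median of -0.01. These shares were no higher than those over all genes, where 9.12% rose and 9.01% fell, and the short lists below are to be read against the same shares. Targeting and translocon genes gave 3 rises and 0 falls of 14, namely Sec11c, a catalytic subunit of signal peptidase (1.09 ± 0.14, adjusted p = 0.000766), Srprb, of the signal recognition particle receptor (0.63 ± 0.15, adjusted p = 0.0173), and Srp54a (1.11 ± 0.33, adjusted p = 0.0404). Srp54a has close copies whose probes may share signal, and its value rested on IL-10- replicate 5, at 7.37 against 8.79 and 9.15 on the other IL-10- arrays and 9.33 to 9.86 in IL-10+ cells. When that array was dropped the difference was 0.58 (adjusted p = 0.0490). Within slide 1 it was 0.66 and within slide 2 2.06, and the call was lost in 8 of 10 omissions, with an adjusted p of 0.0749 when IL-10+ replicate 2 was dropped. With the replicate block Srprb had an adjusted p of 0.0522. Further folding genes gave 2 rises and 0 falls of 17, the thioredoxin-like Txndc5 (0.60 ± 0.12, adjusted p = 0.00759) and the peroxiredoxin Prdx4 (0.63 ± 0.17, adjusted p = 0.0275, and 0.0758 with the replicate block). Dropping IL-10- replicate 2 left Prdx4 at an adjusted p of 0.108.

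N-glycosylation genes gave 2 rises and 3 falls of 22. Gfpt1, which starts the synthesis of the sugar donor, rose by 0.58 ± 0.11 (limma adjusted p = 0.00706) and the glucosyltransferase Alg6 by 0.66 ± 0.16 (adjusted p = 0.0203, and 0.0603 with the replicate block). Ganab, a glucosidase subunit, differed by -0.52 ± 0.13 (adjusted p = 0.0189) and the mannosyltransferase Alg1 by -0.54 ± 0.15 (adjusted p = 0.0307, and 0.114 with the block). Both signs turned under median scaling, to 0.07 and 0.09, but the values stayed below the median of all genes under that scaling, 0.48. Vesicle transport genes gave 1 rise and 4 falls of 33. The cargo receptor Lman1 rose by 0.65 ± 0.11 (adjusted p = 0.00264). The COPII and COPI coat genes Sec24c and Copg1 differed by -0.71 ± 0.12 (adjusted p = 0.00356) and -0.76 ± 0.17 (adjusted p = 0.0134), with -0.13 each under median scaling. Sec16a, of COPII exit sites, differed by -0.46 ± 0.13 (adjusted p = 0.0336, and 0.105 with the block). Its sign turned under median scaling, to 0.11, also below the median of all genes there, 0.48. Single arrays also decided calls here: without IL-10- replicate 2 the adjusted p of Alg6, Copg1 and Sec16a were 0.0593, 0.0526 and 0.126, without replicate 3 that of Alg1 was 0.0877, and without replicate 5 that of Ganab was 0.0542. Of 16 further degradation genes 0 passed, and the smallest adjusted p, 0.0639, was that of Faf2 (-0.46 ± 0.16). At an unadjusted p under 0.05, 1 was higher and 1 lower.

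Several marker lists differed between the sorted fractions, in both directions. Of 8 plasma cell markers 5 were measured, all but Sdc1, Tnfrsf17 and Cd28, and 4 rose in IL-10+ against IL-10- cells. The 4 were Xbp1, Ighm (1.06 ± 0.17, limma adjusted p = 0.00232), Jchain (2.48 ± 0.55, adjusted p = 0.0119) and Prdm1, the master regulator of plasma cells, at least 2.02-fold (adjusted p = 0.00696, and 0.0565 with the replicate block), while Irf4 differed by -0.55 (adjusted p = 0.0502). Their summed linear level was 45065 to 65235 on IL-10+ arrays, 33450 to 39660 on IL-10- arrays and 38258 to 46285 on total B arrays. Jchain, which joins secreted IgM, varied most among the IL-10+ arrays, at 9.27, 6.77, 8.18, 9.40 and 9.32, against 6.11, 6.25 and 5.97 in IL-10- cells and 7.52 and 6.40 in total B cells. Its lowest IL-10+ array was that of replicate 2. The part of antibody-secreting cells in the rises was not tested.

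Of 8 macrophage and monocyte markers 3 were measured, and Csf1r, Cd14, Lyz2, Lyz1 and Itgam were not detected on 2 or more arrays. Their summed linear level was 2656 to 3971 on IL-10+ arrays, 941 to 1702 on IL-10- arrays and 992 to 1371 on total B arrays, and Mpeg1 was the member that rose (1.57 ± 0.26, limma adjusted p = 0.00272). The other measured ones, Cd68 and Adgre1, differed by -0.10 ± 0.30 and -0.06 ± 0.48. Of 8 T cell markers 3 were measured, without Cd3d, Cd3e, Cd4, Cd8a and Trac, and their sums were 2814 to 4489 on IL-10+ arrays, 2356 to 3171 on IL-10- arrays and 2297 to 2380 on total B arrays. Of these Cd3g rose, by 1.0 ± 0.18 (limma adjusted p = 0.00432), while Lck (0.52 ± 0.22) and Cd8b1 (-0.03 ± 0.14) did not pass. Cd3g was well above background on only 3 of 5 IL-10+ arrays and on 0 of the others, so it met the detection filter through the IL-10+ group alone. B cell markers went the other way: of 7 measured, 0 rose and 3 fell, Cd22 (-1.28 ± 0.15, limma adjusted p = 0.000419), Ms4a1 (-0.71 ± 0.12, adjusted p = 0.00307) and Cd79b (-0.75 ± 0.17, adjusted p = 0.0121), and all 7 differences were negative, with a median of -0.58. Of 6 dendritic cell markers 2 were measured, with sums of 291 to 464 on IL-10+ arrays, 576 to 593 on IL-10- arrays and 549 to 753 on total B arrays, and Siglech fell (-1.02 ± 0.16, adjusted p = 0.00218). Of 4 erythroid markers Hbb-b1 alone was measured, and it fell (-1.21 ± 0.24, adjusted p = 0.00768). The part of these cells in the differences of the listed genes was not tested either.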

How the data were processed

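RNA of 10 splenic B cell samples was measured on Illumina MouseWG-6 arrays. The deposited intensity values are mean bead intensities per probe on a linear scale, exported without normalization from GenomeStudio 1.9.0, per the file headers. The deposited detection score rises with signal, and 1 minus it served as the detection p. An earlier background subtraction is not stated in the labels or headers. A second deposited table was not used, as its identifiers do not match the probe numbers of the intensity table. The submitters' processing notes also name lumi.

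Intensities were background-corrected and quantile normalized with neqc (limma 3.58.1, R 4.3.3, offset 16). A detection p under 0.01 was required on 2 or more arrays, which kept 16496 of 45281 probes, and the brightest stood for each of 11185 genes. File names were updated to RefSeq symbols: 16223 of 30854 were current, 5706 a synonym of a single gene, 117 ambiguous and 8808 unmatched. Mzb1 and Manf, among others, carry older names in the file. Groups were compared with lmFit and eBayes in a single two-sided fit of all 10 arrays. The procedure was tested on simulated data. No 2 arrays were identical, and the highest correlation between arrays was 0.991.

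The listed genes, the gene lists and the tests were chosen with earlier results of these data known. Per-array values are given for genes that passed between the sorted fractions, for the smallest p in each role group, and for the largest changes against total B cells. From each further list up to 4 passing genes, or the smallest p where none passed, are named. Probes of Spcs3, and values of Calr, Ell2 and Sec61b, were singled out after they were seen.

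Deviations from the group means correlated across genes between sorted arrays of the same number, at 0.348 (replicate 2), 0.238 (replicate 3) and 0.319 (replicate 5). The numbers, which come from the titles, may therefore mark pairs, but the fit was kept without this block. Blocked values stand beside results whose call the block was seen to change. They were not examined for Cd22, Ms4a1, Cd79b, Siglech, Hbb-b1 and the uncalled markers. These pairs also shared a slide, and a differently numbered pair on slide 2 correlated at 0.276, so number and slide cannot be told apart there. Differently numbered pairs on slide 1 correlated at -0.02 to 0.06. Alternatives covered the pairing, slide, background, scaling, filters, probe choice, groups in the fit, and each array left out.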

Additional observations from a re-analysis of the deposited data

Results flagged for a closer look

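Among the IL-10+ arrays, replicate 4 stood apart for Spcs2, a subunit of signal peptidase. Its log2 level there was 8.18, against 7.93 for the nearest and 7.85 for the lowest of the other 4 arrays, which by Dixon's test leaves a gap of 0.742 of the range. The IL-10- arrays were at 7.27, 8.03 and 8.18 and both total B arrays at 8.23. Chance alone flags about 1 in 20 groups, and 39 genes were examined in this group of 5 arrays.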

How the results depend on the processing

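Between IL-10+ and IL-10- cells, 0 listed genes fell under any alternative, and Mzb1 and Fkbp11 rose in all 20, as did Creb3l2 in the 19 in which it was tested. The replicate block gave 10 rises and lost Edem2 alone of the 9 (0.44, adjusted p = 0.114) while gaining Calr (1.03, adjusted p = 0.0356) and Ell2 (0.67, adjusted p = 0.0316), and over all genes it gave 804 rises and 732 falls. Rises numbered 4 within slide 1, 5 within slide 2, where a single IL-10- array was left, and 18 under median scaling. The median difference was 0.073 within slide 2, 0.80 under median scaling, and 0.092 to 0.32 over the 10 omissions of an array. For IL-10+ against total B cells, omissions gave 3 to 11 rises, 0 to 1 falls and medians of 0.21 to 0.46, and median scaling gave 0 falls and a median of 0.56. For IL-10- against total B cells, omissions gave 0 to 2 rises, 0 to 2 falls and medians of -0.085 to 0.18. There, rises numbered 3 without background correction and 0 under median scaling, without the detection filter, and with only the 2 groups fitted, while falls numbered 2 with the slide block, 2 within slide 2 and 0 with only the 2 groups fitted. The median was 0.16 with the slide block, 0.13 within slide 2 and -0.20 under median scaling. The cause of these shifts was not tested. Of the recomputed differences of called genes, 340 kept their call, 54 missed the threshold and 0 turned sign. With the last 150 bases of each window, an ERSE was found in 8.33% of the listed genes, against 0.0703% of all, and a CRE in 0% of the listed genes. The planned look at retrieval signals was not run, since protein sequences were not used here. With 2 total B arrays, each call against them rests on few values, and genes near background have only bounds.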
